A study of Mus musculus with 8 samples.

Results

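Of 34 genes listed as markers of the renal stroma, 33 were matched by symbol among the 21291 gene rows of the series, and all 33 passed the filter on low values. The list was set by name, from transcription factors, matrix genes and mural genes of the kidney interstitium, with earlier results of these data known. Lef1os1 was not analysed here. Polyadenylated RNA came from the 2 kidneys of each of 8 mouse embryos at E14.5, in 4 control and 4 mutant libraries. Control embryos were Six2-GFPcre tg/+, Etv4+/- and Etv5fl/fl, and mutant embryos were Six2-GFPcre tg/+, Etv4-/- and Etv5fl/fl, so Cre and the homozygous floxed Etv5 allele were carried by both groups. By their labels the 2 groups are set apart by Etv4, an ETS-family transcription factor gene, of which controls already lack 1 copy. The Six2 transgene drives Cre in nephron progenitors, which are not stromal cells, whereas no label restricts the Etv4 null allele to a cell type. The kidneys were whole, so fewer stromal cells and less RNA per stromal cell cannot be told apart.

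The stroma is the mesenchyme that surrounds the ureteric tree and the forming nephrons. Its Foxd1-positive progenitors lie outside the nephron progenitor cap and give rise to cortical and medullary interstitium, to vascular smooth muscle and pericytes, and to mesangium. Stromal cells signal to the cap and to the ureteric bud, and hedgehog ligands from the epithelium reach the medullary and ureteric mesenchyme through Ptch1 and the GLI factors.

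Library totals spanned 15515139 (control 4) to 39548327 (control 2) estimated counts, and 18.4% of the counts of control 4 came from Lars2, a mitochondrial leucyl-tRNA synthetase gene, against 0.138% to 0.476% in the other 7 libraries. Etv4 was lower in every mutant library, at 164 to 294 normalized counts against 2311 to 2816 in controls. Etv5, whose floxed allele both groups carry, was also lower in every mutant library, at 1487 to 2657 normalized counts against 3006 to 4085. Its log2 fold change was −0.79 (SE 0.17, adjusted p = 0.106 by limma), and the reason was not tested. The Y-linked genes Ddx3y, Uty, Eif2s3y and Kdm5d summed to 3586 to 3716 normalized counts in controls and to 0 to 19.6 in mutants, so genotype and embryo sex cannot be told apart for any gene below. Markers of neurons and glia (267 to 709 summed normalized counts), adrenal and gonad (112 to 177) and urothelium (62.8 to 451) were low in all 8 libraries, beside 56048 to 69781 for the stromal genes.

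Stromal transcripts were abundant in all 8 libraries, and no stromal gene passed the threshold between genotypes. With limma over 14974 genes, 0 of 33 had an adjusted p below 0.05, where 0.301% of all genes did (0.0801% higher and 0.22% lower in mutants). At an unadjusted p below 0.05 there were 7 of 33 (21.2%), 6 with higher values and 1 with lower values in mutants, beside 12% of all genes, 6.33% higher and 5.72% lower. The groups did not overlap for 3 of 33 (9.09%), beside 8.6% of all genes. Positive log2 fold changes were found for 26 of 33 genes (78.8%), beside 51.7% of all genes, and negative ones for 7, beside 48.3%. The median was 0.24 against 0.0088 over all genes. With single libraries left out, the median of the stromal genes ran from 0.12 (without control 4) to 0.33 (without mutant 1). It was 0.14 without control 4 and mutant 4, and 0.17 with the mean log2 level of tubule and podocyte markers as a covariate. Without depth correction positive values were found for 31 of 33, where 93.7% of all genes were positive. The direction differed within the mural group, where Abcc9, Kcnj8 and Cspg4 had higher values in mutants and the pericyte gene Rgs5 had lower ones. No gene had a log2 fold change above 1 or below −1, and for 23 of the 33 the whole 95% interval lay between those bounds.

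**Figure D1:**
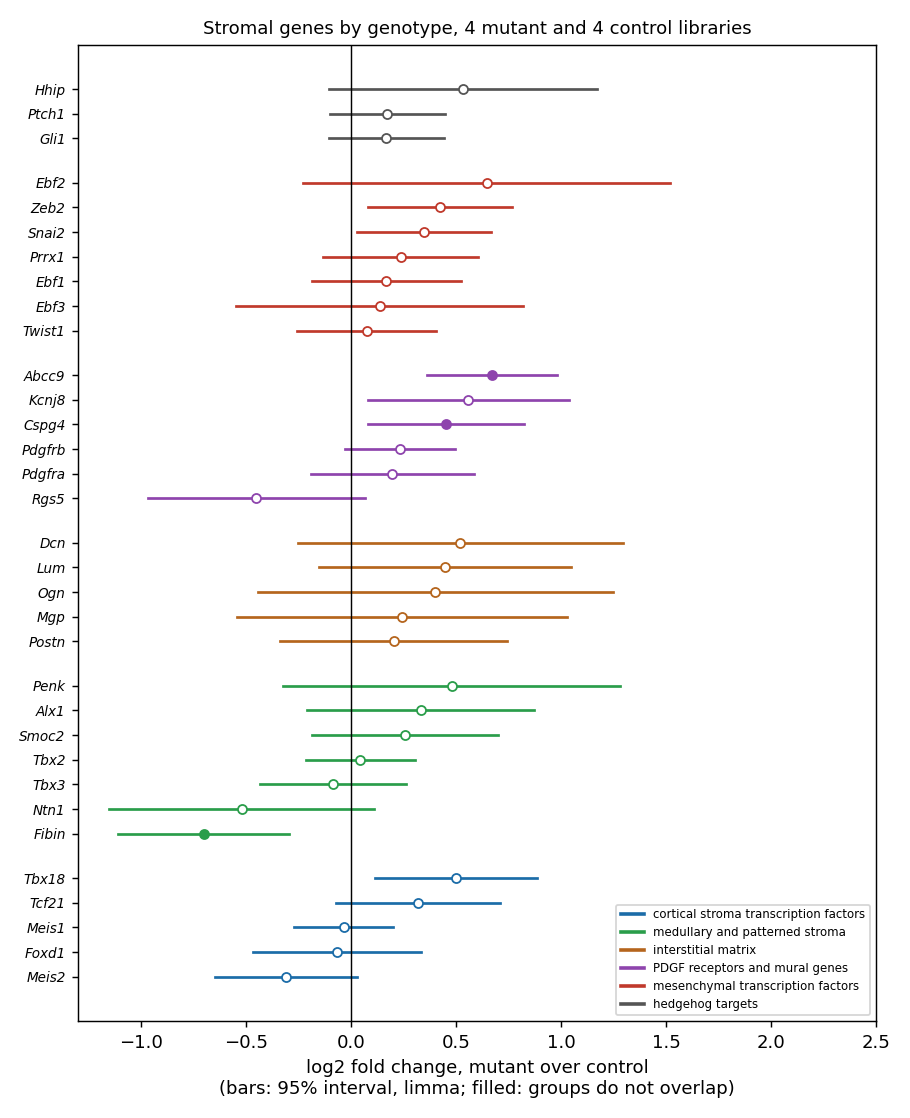
Log2 fold changes of the 33 stromal genes, mutant over control, with their 95% intervals from limma, by role group. Filled points mark Abcc9, Cspg4 and Fibin, the 3 genes whose mutant and control libraries do not overlap, and the estimates run from −0.70 for Fibin to 0.67 for Abcc9.

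The authors' deposited table of 644 genes, all with an adjusted p below 0.05 in their analysis, holds 5 of the 33 genes (15.2%), and it holds 4.05% of all genes tested here. In the authors' deposited table, the log2 fold change was 0.73 for Abcc9 (adjusted p = 0.000517), 0.70 for Kcnj8 (adjusted p = 0.0181) and 0.55 for Zeb2 (adjusted p = 0.00409). In the authors' deposited table it was −0.80 for Ntn1 (adjusted p = 0.00342) and −0.61 for Fibin (adjusted p = 0.0434). The limma signs for these 5 genes were the same, and none passed by limma. The headers of the authors' table do not say which libraries entered it, so they may differ from the 8 used here. In limma without control 4, the log2 fold changes were 0.72 for Abcc9, 0.70 for Kcnj8 and 0.54 for Zeb2. They were −0.76 for Ntn1 and −0.62 for Fibin, and none of the 5 passed. For all 5, the authors' values lay nearer to these than to the limma values from 8 libraries. The reason was not tested.

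Per kilobase of merged GENCODE exon length, the levels of the 33 genes spread widely. Penk was the highest, at 1593 ± 645 normalized counts per kilobase (mean ± SD over 8 libraries), followed by Tcf21 at 1551 ± 332, Tbx2 at 1133 ± 132 and Foxd1 at 1019 ± 216. Penk and Tcf21 differed by less than their SDs, as did Tbx2 and Foxd1, while Tcf21 and Tbx2 differed by more. Pdgfrb stood at 785 ± 103 and Pdgfra at 630 ± 111 normalized counts per kilobase. At the low end were Rgs5 (56.2 ± 15.6), Hhip (10.9 ± 3.25) and Ebf2 (5.50 ± 2.06), and Ebf2 was the least abundant of the 3 Ebf genes.

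Foxd1, Pdgfra and Tcf21, the 3 genes used to check for stroma, were present in every library. Foxd1 (ENSMUSG00000078302, chromosome 13, 98354242 to 98359305, plus strand, GRCm38), the forkhead factor of stromal progenitors, had 7532, 4626, 5493 and 3792 normalized counts in controls 1, 2, 3 and 4, and 5400, 5069, 4742 and 4640 in the mutants of those numbers. All 4 mutants lay inside the control range, which control 1 sets at the top and control 4 at the bottom. Mutants differed from controls on the log2 scale by −0.067 (± 0.18 SE, 95% interval −0.47 to 0.33, adjusted p = 0.918 by limma), and the sign turned to 0.11 without control 1.

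Pdgfra (chromosome 5, 75152292 to 75198215, plus strand), the receptor for PDGF ligands on interstitial fibroblasts, had 7352, 6028, 6552 and 3913 normalized counts in controls and 6297, 6155, 6735 and 7500 in mutants. The groups overlapped, and control 4 was well below the other 7 libraries. The genotype difference in log2 units was 0.20 (± 0.17 SE, adjusted p = 0.696 by limma), and 0.0086 without control 4.

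Tcf21 (chromosome 10, 22817281 to 22820174, minus strand), a basic helix-loop-helix factor of stroma that podocytes also make, had 2414, 3226, 3018 and 4433 normalized counts in controls and 3836, 3377, 4080 and 4764 in mutants. Control 4 was above 3 of the mutants and the other controls were below all of them. Its log2 fold change was 0.32 (± 0.17 SE, adjusted p = 0.511 by limma), 0.18 without control 1, 0.48 without control 4 and 0.14 with the tubule and podocyte covariate. The podocyte markers summed to 2893, 3938, 3385 and 6221 normalized counts in controls and 5066, 4692, 9603 and 13101 in mutants, and beyond that covariate their part in the Tcf21 values was not tested.

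Tbx18, a T-box factor of the ureteric mesenchyme and of stromal progenitors, had 481, 322, 306 and 271 normalized counts in controls and 447, 506, 467 and 490 in mutants. Mutants sat in a narrow band above 3 of the controls, and control 1 fell among them. On the log2 scale mutants differed from controls by 0.50 (± 0.17 SE, unadjusted p = 0.0162, adjusted p = 0.278 by limma). Library names give controls 1 and 2 and mutants 1 and 2 a common number, and control 4 and mutant 4 a second one, without saying what it stands for. Tbx18 differed by 0.27 within the first name set and by 0.85 within the second, which is 1 library against 1. The sign was the same in both name sets for 21 of the 33 genes. The share of all genes with the same sign was not worked out, so no reading is drawn from that count.

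Meis2, a TALE homeobox factor, had 7787, 6230, 7371 and 5604 normalized counts in controls and 6461, 5935, 5314 and 4151 in mutants. The lowest 2 libraries were mutants, and the highest 2 were controls. Mutants differed from controls on the log2 scale by −0.31 (± 0.15 SE, adjusted p = 0.454 by limma), and by −0.18 without mutant 4. Its paralogue Meis1 ranged from 2286 to 3087 normalized counts with a log2 fold change of −0.037 (95% interval −0.27 to 0.20).

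**Figure D2:**
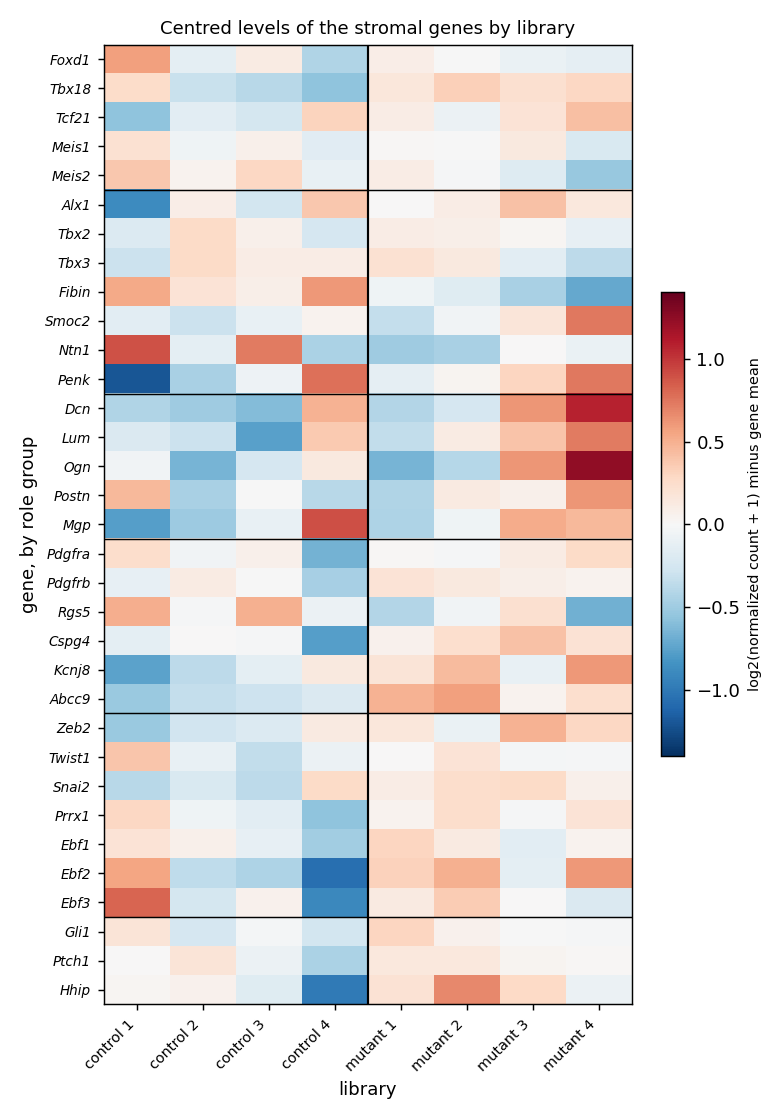
Colour gives log2(normalized count + 1) centred on each gene's mean over 8 libraries, for the 33 stromal genes in rows by role group and the 8 libraries in columns, controls left of the line. Control 4 is the lowest library for 13 of the 33 genes (39.4%, beside 25.6% of all genes), and Dcn, Lum, Ogn, Mgp, Penk and Smoc2 are highest in control 4, mutant 3 and mutant 4.

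Fibin was the stromal gene that stood lowest in mutants relative to controls. Fibin (ENSMUSG00000074971, chromosome 2, 110360917 to 110363183, minus strand), which encodes a secreted protein of embryonic mesenchyme, had 541, 426, 395 and 567 normalized counts in controls and 357, 333, 272 and 227 in mutants. Every mutant was below every control, which held for 4.43% of all genes. The log2 fold change was −0.70 (± 0.18 SE, unadjusted p = 0.00336, adjusted p = 0.155 by limma). It was −0.47 within the first name set and −1.32 within the second.

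Ntn1 (ENSMUSG00000020902, chromosome 11, 68209364 to 68400823, minus strand) encodes netrin-1, a secreted guidance cue made by stromal cells. It had 4893, 2390, 4368 and 1929 normalized counts in controls and 1856, 1914, 2638 and 2472 in mutants. Controls 1 and 3 were far above the other 6 libraries, while controls 2 and 4 lay among the mutants. The log2 fold change of −0.52 (SE 0.28) had a limma adjusted p = 0.506, and it passed only with library weights (−0.90, adjusted p = 0.0362). Without control 1 it was −0.31, within the first name set −0.86, and within the second it was 0.36.

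None of the 7 genes of medullary and patterned stroma passed, Fibin and Ntn1 included. Tbx2 and Tbx3, T-box repressors, had log2 fold changes of 0.044 (95% interval −0.22 to 0.30) and −0.085 (95% interval −0.43 to 0.26). Alx1, a paired-type homeobox factor, ranged from 236 normalized counts in control 1 to 576 in mutant 3, with a log2 fold change of 0.33 (SE 0.24) that was 0.090 without control 1 and 0.51 without control 4. Of 8 netrin receptors and related netrins, all 8 tested, 0 passed the limma threshold, and the 2 with the smallest p were Unc5b (0.36, SE 0.11, adjusted p = 0.24) and Ntn4 (1.07, SE 0.51, adjusted p = 0.446).

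Of the 5 matrix genes, 4 (Dcn, Lum, Ogn and Mgp), and the medullary genes Penk and Smoc2, were highest in the same 3 libraries, which belong to both genotypes. Dcn, which encodes the small leucine-rich proteoglycan decorin, had 1121, 1058, 984 and 2103 normalized counts in controls and 1127, 1269, 2298 and 3157 in mutants. Control 4, mutant 3 and mutant 4 were well above the other 5 libraries, which lay close together. The log2 fold change of 0.52 (± 0.35 SE, adjusted p = 0.592 by limma) was 0.14 within the first name set, 0.25 without mutant 4 and 0.77 without control 4.

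Lum, which encodes lumican of the same proteoglycan family, had 470, 438, 320 and 697 normalized counts in controls and 425, 586, 711 and 897 in mutants. The same 3 libraries were the highest. Between genotypes the log2 difference was 0.45 (± 0.27 SE, adjusted p = 0.546 by limma), 0.27 without control 3 and 0.28 without mutant 4. Ogn, encoding osteoglycin, was at 1151, 1613 and 2474 normalized counts in control 4, mutant 3 and mutant 4 and at 667 to 1015 in the other 5.

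Mgp, an inhibitor of calcification, stood at 830, 637 and 610 normalized counts in control 4, mutant 3 and mutant 4 and at 260 to 427 elsewhere. Penk, the proenkephalin gene of medullary stroma, stood at 4099, 2967 and 4005 in those 3 libraries and at 1045 to 2464 elsewhere. Smoc2, a secreted calcium-binding matricellular protein, stood at 1600, 1732 and 2569 against 1222 to 1488. The choice of Ogn, Mgp, Penk and Smoc2 for these sentences followed from their values. None of the 6 separated the genotypes.

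In all, control 4, mutant 3 and mutant 4 were the 3 highest libraries for 8 of the 33 genes (24.2%), and for 9.86% of all genes tested. Tcf21 and Alx1 were among the 8. The set of 3 libraries was picked after the values were seen, so these shares are no independent test. They were the 3 lowest for 1 of the 33, Meis2, and for 10.1% of all genes. The proximal tubule markers Hnf4a, Lrp2, Cubn, Slc34a1 and Slc5a2 summed to 3086, 3961 and 9440 normalized counts in control 4, mutant 3 and mutant 4 and to 228 to 704 in the other 5. The remaining matrix gene, Postn (periostin), did not follow this order: it was highest in mutant 4 (4644 normalized counts) and control 1 (4133) and lowest in control 2 (2198). With the mean log2 level of the proximal tubule and podocyte markers as a covariate, the log2 fold change was 0.12 for Dcn, 0.18 for Lum, 0.030 for Ogn, −0.13 for Mgp, 0.11 for Penk and 0.067 for Smoc2, against 0.52, 0.45, 0.40, 0.24, 0.48 and 0.25 without it. Of 8 further small leucine-rich proteoglycans, 6 were tested and 0 passed the limma threshold, the smallest p being those of Podn (0.98, SE 0.39, adjusted p = 0.35) and Aspn (0.74, SE 0.33, adjusted p = 0.409).

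**Figure D3:**
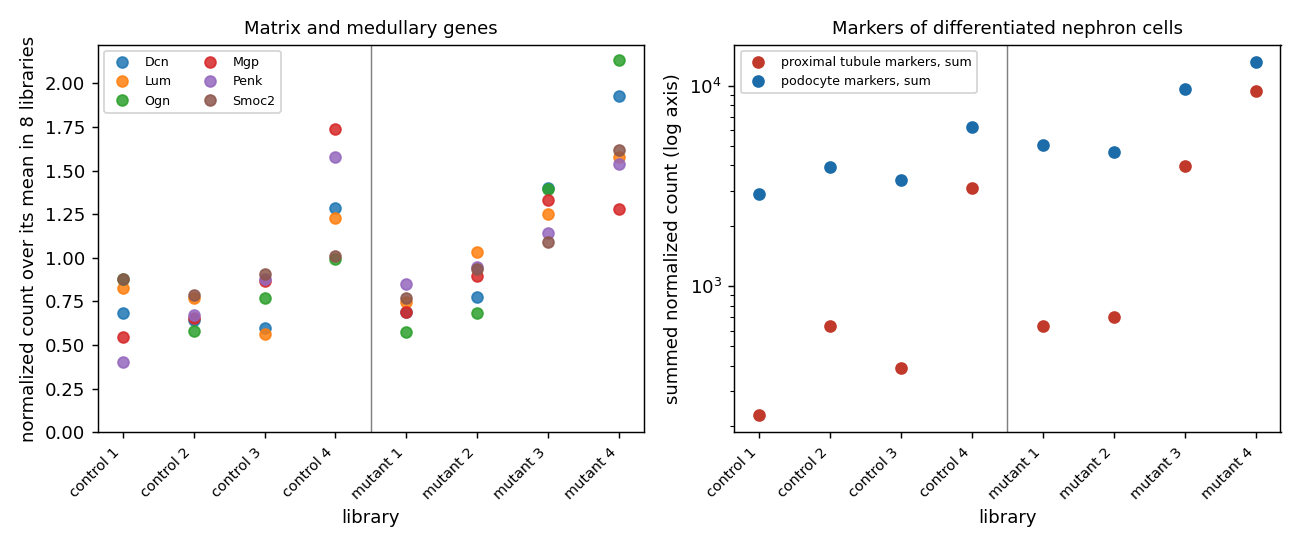
Left, normalized counts of Dcn, Lum, Ogn, Mgp, Penk and Smoc2 in each library, each over the gene's mean in 8 libraries. Right, summed normalized counts of proximal tubule and podocyte markers in the same libraries on a log axis, where control 4, mutant 3 and mutant 4 are the 3 highest for both marker sets.

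The mural genes held the smallest p-value of the stromal list. Abcc9 and Kcnj8 encode the regulatory and the pore-forming subunit of the ATP-sensitive potassium channel of pericytes and vascular smooth muscle, and they are neighbours on chromosome 6 with 16247 bases between them. Both are on the minus strand, Kcnj8 (ENSMUSG00000030247) at 142564837 to 142571614 and Abcc9 (ENSMUSG00000030249) at 142587862 to 142702315. Their sequences upstream of the start site are shown because this neighbouring pair had the 2 highest fold changes of the mural group. They come from RefSeq on GRCm38.p6, are written on the gene's strand without bases inside the GENCODE gene, and have in capitals the letters GGAA, the core bound by ETS factors, on either strand.
Abcc9, chr6:142702316-142702524: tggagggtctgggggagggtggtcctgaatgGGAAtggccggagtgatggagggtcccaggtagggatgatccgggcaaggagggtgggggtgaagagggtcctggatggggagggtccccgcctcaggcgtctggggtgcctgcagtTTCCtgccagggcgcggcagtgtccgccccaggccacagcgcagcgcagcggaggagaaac
Kcnj8, chr6:142571615-142571864: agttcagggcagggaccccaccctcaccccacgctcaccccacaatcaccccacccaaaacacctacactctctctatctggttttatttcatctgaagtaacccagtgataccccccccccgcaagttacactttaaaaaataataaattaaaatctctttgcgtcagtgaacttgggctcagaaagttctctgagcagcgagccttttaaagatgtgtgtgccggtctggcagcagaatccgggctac

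The Abcc9 window of 250 bases held 2 matches to GGAA and the Kcnj8 window held 0, where the median over 32851 RefSeq windows of that length was 3 and 93.4% held at least 1. The longer ETS sequence CCGGAAGT, searched on both strands and itself containing GGAA, was in 2.88% of all windows and, among the 20 stromal genes with a window, in that of Meis1 alone. The GLI sequence TGGGTGGTC was in 0.225% of all windows and in none of the stromal ones. These are matches of letters and say nothing of binding.

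Abcc9 had 374, 426, 441 and 468 normalized counts in controls and 750, 800, 556 and 632 in mutants. Every mutant was above every control, which held for 4.17% of all genes. On the log2 scale mutants differed from controls by 0.67 (SE 0.14, 95% interval 0.36 to 0.98), with an unadjusted p of 0.000722 and a limma adjusted p = 0.0932, and it passed with library weights (0.73, adjusted p = 0.0109) and with the tubule and podocyte covariate (0.71, adjusted p = 0.0416). It was 0.96 within the first name set and 0.43 within the second.

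Kcnj8 had 256, 334, 393 and 476 normalized counts in controls and 489, 586, 401 and 658 in mutants. Mutant 3 fell below control 4, and the other 3 mutants were above every control. The log2 fold change was 0.56 (± 0.21 SE, unadjusted p = 0.0265, adjusted p = 0.331 by limma), 0.87 within the first name set and 0.47 within the second. An exon of Abcc9 overlaps another annotated gene, so a share of its counts could belong to that gene.

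Cspg4, the NG2 proteoglycan of pericytes, had 2102, 2324, 2290 and 1356 normalized counts in controls and 2402, 2718, 3067 and 2662 in mutants. The groups did not overlap, by a small margin between control 2 and mutant 1. The genotype difference in log2 units was 0.45 (± 0.17 SE, unadjusted p = 0.022, adjusted p = 0.31 by limma), and 0.27 without control 4, which was the lowest library.

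Pdgfrb, the PDGF receptor of mural cells, ranged from 3097 normalized counts in control 4 to 4882 in mutant 1, and mutants differed by 0.23 on the log2 scale (± 0.12 SE, adjusted p = 0.474 by limma). Rgs5, a regulator of G-protein signalling in pericytes, chosen here once its values were known, had 351, 243, 349 and 232 normalized counts in controls and 186, 238, 289 and 154 in mutants. The 2 lowest libraries were mutants, and the ranges overlapped. Between genotypes the log2 difference was −0.45 (± 0.23 SE, adjusted p = 0.476 by limma), and 0.014 without depth correction. The difference within the mural group was one of sign and was not tested.

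**Figure D4:**
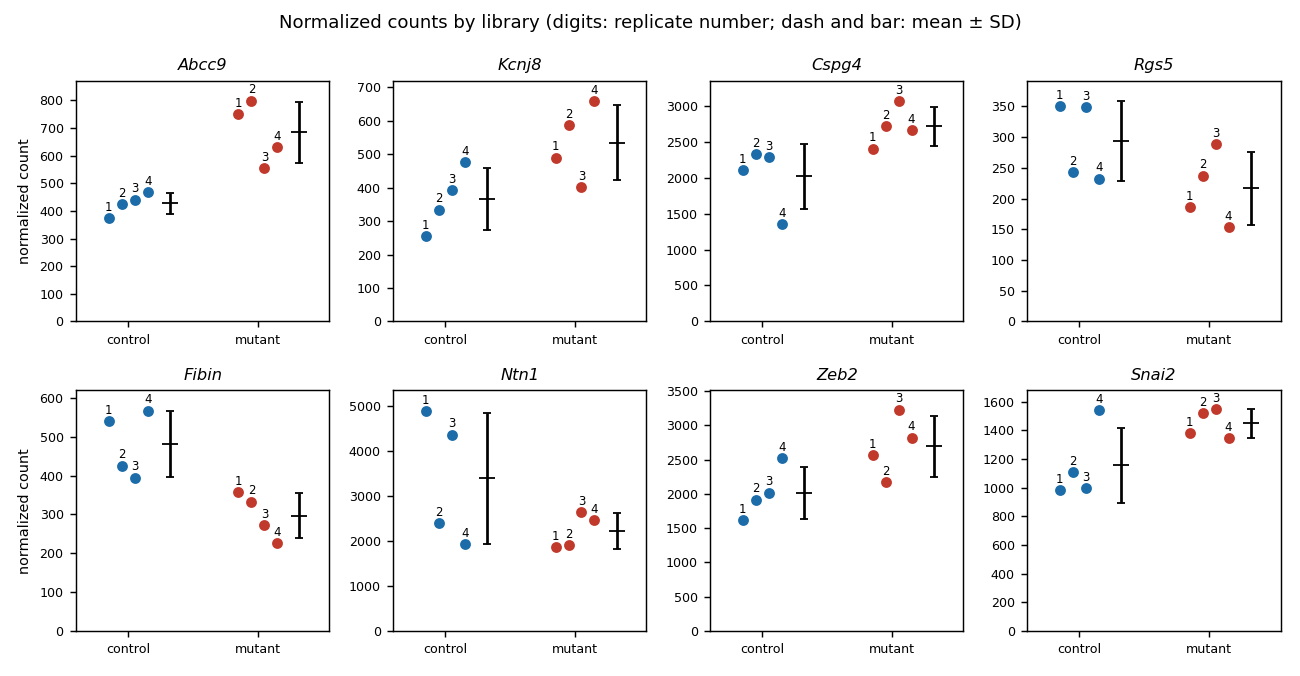
Normalized counts by library for 8 stromal genes, with the replicate number above each point and the mean ± SD of each group (n = 4) beside the points. The 4 mutants lie above the 4 controls for Abcc9 and Cspg4 and below them for Fibin, and the groups overlap for the other 5 genes.

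Among 13 other mural genes, 12 were tested, 10 had positive fold changes and 0 passed the limma threshold. Ren1, the renin gene of juxtaglomerular cells, stood at a log2 difference of −2.38 (SE 0.44, adjusted p = 0.0744), and without control 4 it fell (−2.67, adjusted p = 0.0265). Cox4i2, a cytochrome oxidase subunit of pericytes, had one of 0.68 (SE 0.17, adjusted p = 0.124). The endothelial markers Pecam1, Cdh5, Kdr, Tie1, Tek and Emcn summed to 13143 to 17274 normalized counts in controls and 18438 to 21092 in mutants, and their part in the mural values was not tested. Of the 7 smooth muscle markers, 5 had positive and 2 negative fold changes. The tropomyosin gene Tpm2 fell (−0.64, SE 0.079, limma adjusted p = 0.0146), and Des, the intermediate filament desmin, stood at −1.17 (SE 0.20, limma adjusted p = 0.058) with every mutant below every control. Of 4 PDGF ligands 0 passed, and Pdgfc was lower in every mutant (−0.76, SE 0.15, adjusted p = 0.0858), falling without control 4 (−0.88, adjusted p = 0.0206), whereas Pdgfd stood at 0.36 (SE 0.26, adjusted p = 0.623).

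All 7 mesenchymal transcription factors had positive fold changes, those of Twist1 and Ebf3 turning negative in some refits. Zeb2, a zinc-finger repressor of epithelial genes that macrophages and podocytes also express, had 1611, 1915, 2018 and 2521 normalized counts in controls and 2566, 2169, 3230 and 2822 in mutants. Mutant 2 lay below control 4, and the other 3 mutants were above every control. The log2 fold change was 0.42 (± 0.15 SE, unadjusted p = 0.0211, adjusted p = 0.308 by limma). The macrophage markers summed to 1305 to 2112 normalized counts in controls and 2215 to 2605 in mutants, and their part in the Zeb2 values was not tested.

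Snai2, the zinc-finger factor Slug, had 981, 1106, 996 and 1541 normalized counts in controls and 1382, 1521, 1549 and 1344 in mutants. Control 4 reached the level of the mutants, and controls 1 to 3 lay well below them. Mutants differed from controls on the log2 scale by 0.35 (± 0.14 SE, unadjusted p = 0.0353, adjusted p = 0.362 by limma). Without control 4 it rose (0.50, adjusted p = 0.0354), while between control 4 and mutant 4 the difference was −0.20.

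Twist1, a basic helix-loop-helix factor, and Prrx1, a homeobox factor, both of mesenchyme, had log2 fold changes of 0.075 (95% interval −0.26 to 0.41) and 0.24 (95% interval −0.13 to 0.60). The 3 early B-cell factor genes, which mark stromal lineages, did not pass. Ebf1 ranged from 493 to 850 normalized counts, Ebf3 from 335 to 1100 and Ebf2 from 16.6 to 54.5, each lowest in control 4. Their log2 fold changes were 0.17 (SE 0.16), 0.14 (SE 0.30) and 0.64 (SE 0.39), and that of Ebf3 was −0.14 without control 4.

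Of 20 relatives of these transcription factors, 15 were tested and 0 passed. The forkhead genes Foxc1 (−0.66, SE 0.12, limma adjusted p = 0.058) and Foxd2 (−0.94, SE 0.23, limma adjusted p = 0.124) had the smallest p and lower values in all 4 mutants. Without control 4 both fell, Foxc1 to an adjusted p = 0.0376 and Foxd2 to an adjusted p = 0.0265. Foxd1 stood apart from Foxd2 in estimate, at −0.067, but the difference between the 2 genes was not tested.

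None of the hedgehog targets passed the limma threshold. Hhip, a decoy receptor induced by hedgehog signalling, had 95.8, 98.7, 83.9 and 47.0 normalized counts in controls and 108, 151, 115 and 88.8 in mutants. Mutant 4 lay within the control range and control 4 was the lowest library. The genotype difference in log2 units was 0.53 (± 0.29 SE, adjusted p = 0.498 by limma), and 0.30 without control 4.

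Ptch1, the hedgehog receptor and a target of the pathway, had 2738, 3084, 2588 and 2006 normalized counts in controls and 3035, 3017, 2796 and 2751 in mutants. All mutants lay under control 2 and above controls 1, 3 and 4. The log2 fold change was 0.17 (± 0.12 SE, adjusted p = 0.621 by limma), and 0.053 without control 4. Gli1, the transcriptional effector and a target, ranged from 750 to 1104 normalized counts, with a log2 fold change of 0.17 (SE 0.12).

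Of 14 other hedgehog pathway genes, all tested, 0 passed the limma threshold, and 8 had positive and 6 negative fold changes. Gas1, a hedgehog co-receptor, had the smallest p (−0.76, SE 0.18, adjusted p = 0.119), and without control 4 it fell (−0.93, adjusted p = 0.0147). Gli3, the GLI factor that acts mainly as a repressor, stood at −0.29 (SE 0.13, adjusted p = 0.396). The nephron progenitor markers Six2, Cited1, Meox1, Eya1, Crym and Gdnf summed to 14673 to 29027 normalized counts in controls and 2835 to 8809 in mutants, and their part in the Gas1 values was not tested.

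Among 16 further stromal genes fixed as a list, all tested, 0 passed, 12 had positive fold changes and the median was 0.17. Vim, the intermediate filament vimentin, was higher in every mutant (0.39, SE 0.071, limma adjusted p = 0.0688) and rose without control 4 (0.40, adjusted p = 0.022). Col1a2, a chain of type I collagen, was also higher in every mutant (0.50, SE 0.14, adjusted p = 0.188). Aldh1a2, a retinoic acid synthesis enzyme named after its values were seen, was lower in every mutant (−0.46, SE 0.14, limma adjusted p = 0.233). The authors' deposited table also holds genes of the pathway lists above that did not pass here. Its log2 fold changes were −0.93 for Gas1, −0.56 for Disp1, −0.88 for Pdgfc, −0.53 for Aldh1a2 and −0.69 for Foxc1. They were −1.11 for Foxd2, −0.75 for Zeb1, −2.71 for Ren1, 0.80 for Cox4i2 and 0.75 for Gucy1a1. All have an adjusted p below 0.05 there.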

How the data were processed

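Per the labels' protocols, libraries came from polyA-enriched RNA and were read from both ends. The submitters' processing notes name fastp 0.23.2, kallisto 0.46.0, DESeq2 1.40.2 and mm10. The sources used here do not give what each was used for. Deposited log2 values, named as normalized, behaved as log2(estimated count + 1) without scaling for depth: undoing the log left 73.4% of values whole (tolerance 1e-06), and library totals differ. They were turned back into counts and scaled by size factors from medians of ratios (0.361 in control 4, the shallowest, to 1.27 in control 2). Per the file headers, the authors' table of comparisons holds base means (a normalized signal), log2 fold changes and their errors, a score for the test, and p-values.

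The genotype comparison used limma 3.58.1 in R 4.3.3 (lmFit, then trended eBayes, two-sided) on log2(normalized count + 1), for the 14974 genes that reached 10 normalized counts in 4 or more libraries, with no other term. Adjusted p-values are Benjamini-Hochberg values over all of these genes, read at 0.05. Such fold changes are compressed for low genes. P-values measure the difference against the spread within 4 libraries a group, each from a different kidney pair.

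The members and lists were chosen with earlier results of these data known. Per-library values are given for Foxd1, Pdgfra and Tcf21, and for stromal genes of the 33 whose groups do not overlap. They are also given for the 2 smallest p of each role group and for those of the 33 in the authors' table. Each pathway list is given by estimates for its 2 smallest p. Positions and merged exon lengths come from GENCODE M21 on GRCm38, the assembly of mm10. Of the 33 genes, 12 share exon bases with another annotated gene, and whether counting used strand is not given. The fit was tested on simulated data. Alternatives covered filters, pseudocounts, scaling, variance models, blocks, a covariate and left-out libraries; fitting controls 1 and 2 with mutants 1 and 2 alone was chosen after seeing the data. Figures used matplotlib 3.10.9 in Python 3.11.15.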

Additional observations from a re-analysis of the deposited data

Results flagged for a closer look

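Over the 33 genes and both genotypes, 66 groups of 4 libraries were examined for a library that stands apart from the other 3, and 2 were found; chance alone flags about 1 in 20 such groups. Dcn in control 4 had 2103 normalized counts, against 984 to 1121 in the other controls. Twist1 in mutant 2 had 922 normalized counts, against 791 to 812 in the other mutants.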

How the results depend on the processing

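The count of stromal genes past the limma threshold, 0 as reported, was 3 with library weights (Abcc9, Ntn1, Snai2), 1 with the tubule and podocyte covariate (Abcc9), 1 without control 4 and mutant 4 (Snai2) and 0 to 1 with single libraries left out (1, Snai2, without control 4). The 7 genes at an unadjusted p below 0.05 became 15 with library weights, 15 with the replicate block, 11 with the covariate, 11 without control 4 and mutant 4 and 5 to 16 with single libraries left out, and the 6 with higher values became 11, 12, 10, 8 and 3 to 12 in the same fits. Over all genes, 12% had such a limma p as reported, 21.7% with library weights, 16.4% with the replicate block and 18.4% with the covariate. That share was 16.1% without control 4 and mutant 4, and 8.62% to 18.2% with single libraries left out. The count of all genes past the threshold, 45, was 11 with total-count scaling, 80 with no depth correction, 28 without trend, 748 with library weights, 69 with voom, 133 with the replicate block, 240 with the covariate, 179 without control 4 and mutant 4, 18 in controls 1 and 2 and mutants 1 and 2 alone and 2 to 161 with single libraries left out. The 0 pathway genes became 1 with upper-quartile scaling, 11 with library weights, 2 with voom, 5 with the replicate block, 7 with the covariate, 7 without control 4 and mutant 4 and 0 to 7 with single libraries left out. The causes were not tested.

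Signs of small differences were less stable. Over all refits of the 33 genes, 720 values kept sign and side of the threshold, 32 turned sign and 6 passed; for the pathway genes named these were 284, 2 and 35. Total-count scaling, which the Lars2 share of control 4 enters, moved the median of all genes to 0.14 and that of the stromal genes to 0.37, and no depth correction moved them to 0.48 and 0.70, so signs under these read relative to that shift. Foxd1 then stood at 0.066 and 0.40, Meis1 at 0.096 and 0.43 and Tbx3 at 0.047 and 0.38, and without depth correction Meis2 stood at 0.16, Rgs5 at 0.014 and Gli3 at 0.18. With the covariate Foxd1 was 0.085, Meis1 0.030 and Mgp −0.13. With library weights Postn was −0.00019 and Pdgfra −0.011, and with the library-name number as a block Twist1 was −0.0050. Without control 4 and mutant 4, Tbx3 was 0.046, Postn −0.065, Pdgfra −0.048 and Ebf3 −0.049. In controls 1 and 2 and mutants 1 and 2 alone, Tbx3 was 0.19, Ogn −0.18, Postn −0.14, Pdgfra −0.096, Twist1 −0.039, Ebf3 −0.046 and Pdgfd −0.069. With single libraries left out, Foxd1 ran from −0.22 to 0.11, Meis1 from −0.094 to 0.030, Tbx2 from −0.025 to 0.14, Tbx3 from −0.20 to 0.024, Twist1 from −0.028 to 0.21 and Ebf3 from −0.14 to 0.43.

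The data did not settle whether the replicate numbers pair the libraries. Deviations of same-numbered libraries correlated at 0.27, 0.098, −0.13 and 0.35 for numbers 1 to 4. Of the 4 controls, 3 correlated best with the mutant of their number. With the replicate block, 0 stromal genes passed, and 15 had an unadjusted limma p below 0.05, beside 16.4% of all genes. Ebf2 had no value under the stricter filter. Precision is limited by 4 libraries a group and by the depth of control 4.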
